A study of Mus musculus with 6 samples.

Results

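The genes described here are 33 targets and regulators of the sterol regulatory element binding proteins (SREBPs), measured in MIN6 cells, an insulin-secreting mouse beta cell line. They were taken by name from a table of 55487 genes, once each, and all 33 were present and passed the filter on low counts. They comprised 5 regulators (Srebf1, Srebf2, Scap, Insig1, Insig2), 17 enzymes of sterol synthesis, the sterol carrier gene Stard4, 4 enzymes of fatty acid synthesis and 6 elongases and desaturases. MIN6 cells were grown in serum-containing medium and transiently transfected with Lipofectamine 2000, either with full-length parathyroid hormone-related protein (PTHrP; 3 libraries) or with the vector DsRed as the empty control (3 libraries). RNA was collected at most 3 days later. All 6 libraries therefore share the transfection reagent, and no untransfected library was analysed. The share of cells that took up the plasmid and the promoter that drove the insert were not given in the sources used here. Nor do the labels say whether the replicates were separate cultures. The p-values therefore speak of the spread among these 6 samples alone, and that spread may be technical.

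SREBPs are transcription factors made as membrane proteins of the endoplasmic reticulum. When sterols are scarce, the escort protein SCAP carries them to the Golgi, where proteases release the active part. When sterols are plentiful, INSIG proteins hold SCAP back, and the genes of sterol synthesis and uptake are transcribed less. SREBP-2, the product of Srebf2, is known mainly for the sterol genes, and SREBP-1c, one product of Srebf1, for the fatty acid genes, whose transcription insulin promotes. In beta cells the pathway supplies lipid to the insulin granule and plasma membranes, and excess activity is known to disturb secretion.

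SREBPs bind sterol regulatory elements, usually beside sites for the factors NF-Y and Sp1. The promoters of 3 members whose values are described at length are shown for that reason: Hmgcs1 was lower in every PTHrP library, whereas Mvk and Fasn were among the members higher in PTHrP replicates 1 and 3. Each is the 200 bases that precede the gene's start in RefSeq (build GRCm38.p6), written 5′ to 3′ on the gene's strand, in lower case. Capitals mark 3 motifs matched on both strands: the sterol regulatory element TCACNCCAC, the NF-Y box CCAAT and the Sp1 box GGGCGG, each shown in reverse complement where it lies on the other strand. The windows are chr13:119690151-119690350 (plus strand) for Hmgcs1, chr5:114444069-114444268 (plus strand) for Mvk and chr11:120824548-120824747 (minus strand) for Fasn.
Hmgcs1: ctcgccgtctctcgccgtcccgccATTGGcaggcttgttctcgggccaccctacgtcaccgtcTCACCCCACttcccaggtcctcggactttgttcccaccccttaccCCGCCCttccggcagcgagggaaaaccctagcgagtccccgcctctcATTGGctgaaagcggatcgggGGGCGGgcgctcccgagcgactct
Mvk: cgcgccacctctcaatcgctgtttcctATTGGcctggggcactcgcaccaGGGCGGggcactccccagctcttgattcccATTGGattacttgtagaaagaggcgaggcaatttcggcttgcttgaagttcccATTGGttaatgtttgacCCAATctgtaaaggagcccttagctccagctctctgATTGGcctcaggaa
Fasn: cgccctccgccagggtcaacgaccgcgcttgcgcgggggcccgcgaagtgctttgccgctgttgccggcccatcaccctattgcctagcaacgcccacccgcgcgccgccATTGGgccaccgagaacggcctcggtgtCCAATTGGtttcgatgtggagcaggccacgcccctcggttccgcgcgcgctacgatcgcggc

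The Hmgcs1 stretch held 1 sterol regulatory element, TCACCCCAC, which began 137 bases before the start, along with 2 NF-Y boxes and 2 Sp1 boxes. That of Mvk held 5 NF-Y boxes and 1 Sp1 box, and that of Fasn held 3 NF-Y boxes, of which 2 overlap on opposite strands, and no match to the other motifs. RefSeq windows of 300 bases (250 before and 50 after the start) were held for 26 members. Of these, 21 (80.8%) had an NF-Y box, against 41.1% of 27025 genes with such windows, and 21 (80.8%) had an Sp1 box, against 38.2%. A gene with several windows counts if any holds the box. Counted by window, the NF-Y box was in 64.7% of 34 member windows, against 37.4% of 32851, and the Sp1 box in 73.5%, against 35.7%. The background was every gene with a window, expressed or not. Both boxes stood in the same window for 17 of 26 members (65.4%), against 14.5% of all genes. Only Hmgcs1 matched the sterol regulatory element (1 of 26, or 3.85%), against 1.44% of all genes. These are matches of letters within short windows, not measured binding, and other spellings of the element were not searched. Scd1, Sqle, Fads1, Fdft1, Fdps, Stard4 and Scd2 have no sequence here.

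Totals ran from 84427033 to 94613684 counts per library. The plasmid's gene, Pthlh, was counted 697, 553 and 797 times with PTHrP transfected and 0, 4 and 8 times with DsRed, in line by line agreement with the labels. PTHrP replicate 2 stood apart: it was the lowest of the 6 libraries for 4855 of 21141 genes tested (23%) and the highest for 4952 (23.4%), whereas each other library was lowest for 2873 to 3849 genes and highest for 2708 to 3710. Results are given with all 6 libraries and with the 5 that remain without it, a choice made with earlier results of these data known. The 10 beta cell markers were all detected, with Ins2 the most abundant. Their summed level was 48000 to 54400 CPM (counts scaled to a common library total) in PTHrP and 49400 to 61400 in DsRed, highest in DsRed replicate 3. Of the markers of other cell types, the 3 adipocyte genes summed to 0.0697 to 0.157 CPM in PTHrP and 0.217 to 0.338 in DsRed, and the 3 macrophage genes to 0.348 to 0.975 and 1.34 to 1.58. Both lists were near 0 and lower in every PTHrP library. Alpha cell markers, mostly Gcg, summed to 137 to 178 CPM in PTHrP and 147 to 154 in DsRed, and the hepatocyte pair, mostly Ttr, to 190 to 235 and 208 to 249. The acinar, duct and fibroblast lists were each at 5.06 CPM or less in every library, with the acinar factor Ptf1a at 0, and the delta and PP cell lists at 0.278 or less.

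Levels per length (RPKM, mean of the 6 libraries, over the exons of GENCODE M21) spanned more than 3 orders of magnitude among the members. Acly, which makes cytosolic acetyl-CoA from citrate, had the highest level per length, 1490 RPKM. It was followed by the desaturases Scd2 (211 RPKM), Fads1 (173 RPKM) and Fads2 (152 RPKM) and by Insig1 (136 RPKM). Among the sterol enzymes Cyp51 (43.4 RPKM) and Sqle (42.6 RPKM) were the most abundant per length. Scd1, the main stearoyl-CoA desaturase of liver and fat, was at 7.05 RPKM, below its paralog Scd2. Fdps had the lowest level, 0.89 RPKM, and Elovl6 the next, 1.25 RPKM. Fdps shares 1124 exonic bases on the same strand with an overlapping gene model in GENCODE M21, Gm43738. The authors' counts include Gm43738, at 8 in DsRed replicate 3 and 0 in every other library. The exons the authors used were not given, and reads in shared exons can be dropped or split, so the level of Fdps is uncertain.

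With all 6 libraries, 0 of 33 members passed edgeR's quasi-likelihood test at an adjusted p of 0.05. Among all genes tested, 0.0189% passed as higher and 0.0237% as lower in PTHrP, so few genes passed in any pathway. The lowest adjusted p of a member was 0.367. At an unadjusted p under 0.05, 2 members were higher in PTHrP (Mvk and Fads1; 6.06% of members, 4.92% of all genes) and 5 were lower (Hmgcs1, Idi1, Msmo1, Cyp51 and Hsd17b7; 15.2% of members, 3.98% of all genes). DESeq2 and limma-voom also passed 0 members, with 6 members (18.2%, against 8.72% of all genes) and 7 members (21.2%, against 9.3%) at an unadjusted p under 0.05 in either direction. The all-gene shares include many genes of low count. Among genes with at least 1 CPM in 3 libraries, edgeR gave 24.2% of members against 11.9% of 13202 genes. Without a filter on low counts, Mvk passed as higher (0.275% of 44413 genes) and Hmgcs1 and Idi1 as lower (0.221%). The groups did not overlap, with PTHrP higher, for 1 member, Fads1 (3.03%, against 8.45% of all genes). They did not overlap, with PTHrP lower, for 6 members, all sterol enzymes (18.2%, against 7.88% of all genes). The median log2 fold change of the members, PTHrP minus DsRed, was −0.07, beside −0.01 over all genes. It was positive for 14 members and negative for 19 (42.4% positive, against 48.7% of all genes). In bulk RNA, fewer cells that express a gene and less RNA per cell cannot be told apart.

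Without PTHrP replicate 2, 4 of 33 members rose in PTHrP: Mvk, Scd1, Srebf1 and Fasn (12.1% of members, against 0.636% of 22316 genes). No member fell (0 of 33, against 0.318% of genes). The 4 are a kinase of the mevalonate pathway, a desaturase, the gene of SREBP-1 and fatty acid synthase. DESeq2 on the same 5 libraries passed those 4 and Scd2 (1.57% of all genes higher), and limma-voom passed those 5 and Fads1 (0.869%). At an unadjusted p under 0.05, 8 members were higher (24.2%, against 6.77% of genes) and 2 were lower, Hmgcs1 and Idi1 (6.06%, against 6.21%). The groups did not overlap for 8 members with PTHrP higher (24.2%, against 15.2% of genes) and for 6 with PTHrP lower (18.2%, against 15.3%). The median log2 fold change of the members was then −0.0034, beside −0.01 over all genes. These calls rest on 2 PTHrP libraries, and no member passed when any other single library was left out. The library left out was the lowest of the 6 for 19 members (57.6%, against 23% of all genes tested), Scd1, Srebf1 and Fasn included. Leaving it out raised the fold changes of those members by construction, so the shares above favour a rise in advance.

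**Figure D1:**
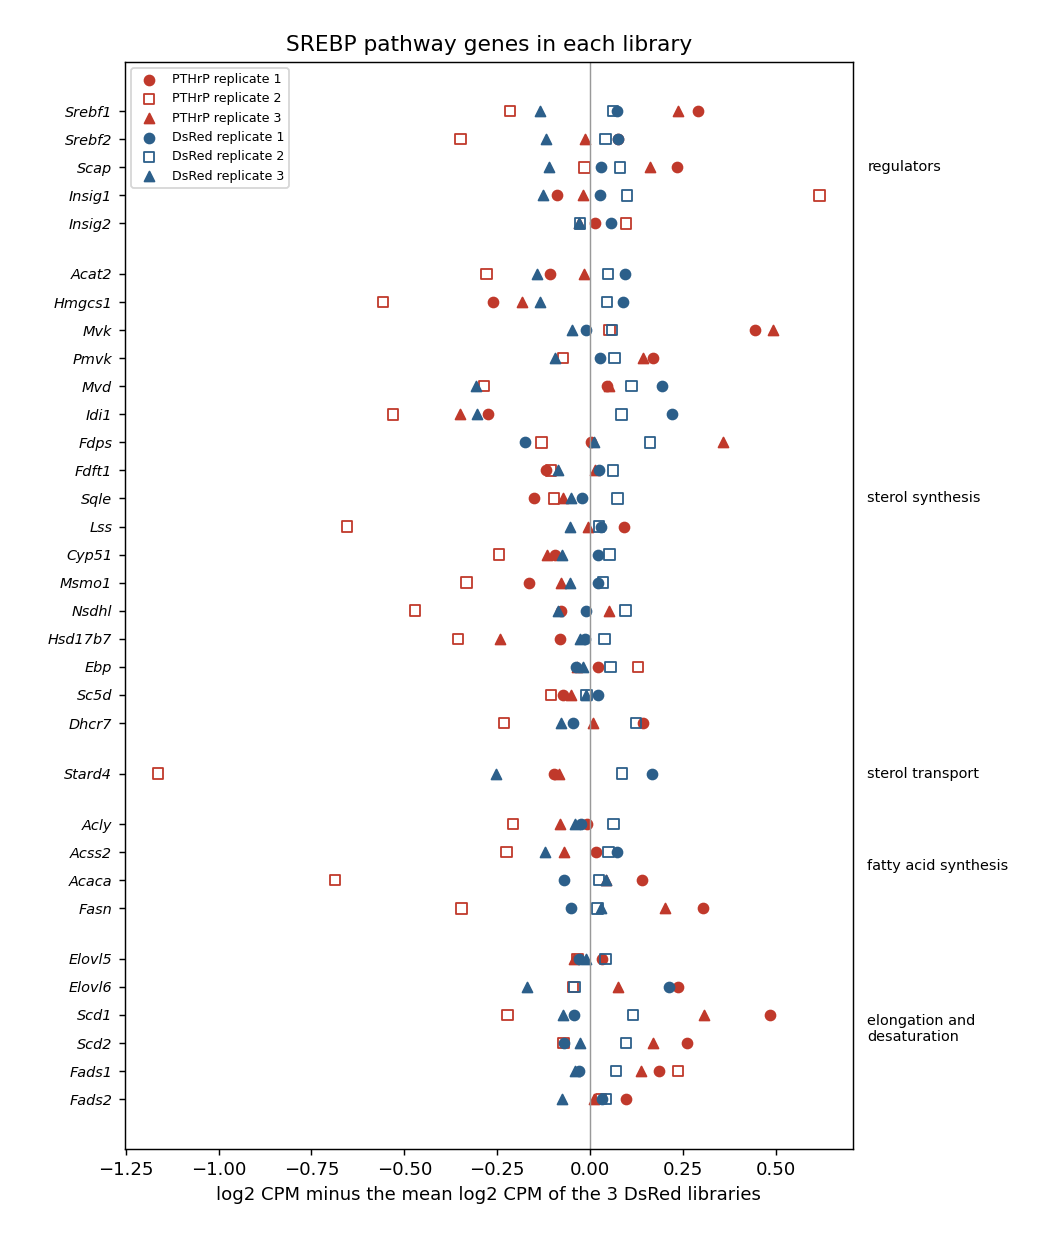
Each row is 1 of the 33 genes, grouped by role, and each symbol is 1 library, placed by its log2 CPM minus the mean log2 CPM of the 3 DsRed libraries (x axis). Red symbols are PTHrP and blue are DsRed, and the open squares are replicate 2 of each. PTHrP replicate 2 lay lowest of the 6 libraries for 19 genes and far to the right for Insig1.

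Among the regulators, Srebf1, which encodes SREBP-1a and SREBP-1c, was at 429, 302 and 413 CPM in PTHrP replicates 1, 2 and 3 and at 369, 366 and 319 CPM in DsRed replicates 1, 2 and 3, the order kept for all genes that follow. PTHrP replicates 1 and 3 were above all DsRed libraries and replicate 2 below all of them, so the groups overlapped. Its log2 fold change was 0.12 (SE 0.13, edgeR adjusted p = 0.847, n = 3 per group). Without replicate 2 it rose by 0.26 (SE 0.06, edgeR adjusted p = 0.0389). Part of its count cannot be assigned with certainty, since 109 exonic bases lie opposite the gene Rai1 and the strand setting of the counting was not given. The gene is at chr11:60199089-60222581 on the minus strand (GRCm38; this and later gene positions are those of GENCODE M21).

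Srebf2, which encodes SREBP-2, was at 289.6, 216 and 272 CPM in PTHrP and 289.7, 283 and 254 CPM in DsRed, in replicate order. Only PTHrP replicate 2 was outside the DsRed range. The log2 fold change was −0.09 (SE 0.10) with 6 libraries and 0.03 (SE 0.06) without that replicate, so its sign turned. Scap, the escort protein, was at 144, 121 and 137 CPM in PTHrP and 125, 129 and 113 CPM in DsRed. It lay above all DsRed libraries in PTHrP replicates 1 and 3. Its log2 fold change was 0.13 (SE 0.08, edgeR adjusted p = 0.669), and 0.20 (SE 0.06, edgeR adjusted p = 0.145) without replicate 2. Exons of Scap overlap an opposite-strand gene model by 985 bases.

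Insig1 and Insig2 encode the retention proteins, and Insig1 is itself an SREBP target. Insig1 was at 367, 600.1 and 385 CPM in PTHrP and at 398, 419 and 358 CPM in DsRed. PTHrP replicate 2 was the highest of all libraries, 0.67 above the other PTHrP libraries on the log2 scale, while the other 2 PTHrP libraries lay within the DsRed range. The log2 fold change turned from 0.20 (SE 0.21) to −0.05 (SE 0.06) without that library. Insig2 varied least of the regulators, at 67.4, 71.4 and 65.4 CPM in PTHrP and 69.4, 65.5 and 65.4 CPM in DsRed. Its log2 fold change was 0.03 (SE 0.06) with 6 libraries and −0.0064 without replicate 2.

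The early sterol enzymes lead from acetyl-CoA to the isoprenoid units. Acat2, the cytosolic thiolase of the first step, was at 71.1, 63.2 and 75.8 CPM in PTHrP and 81.8, 79.3 and 69.4 CPM in DsRed, with overlapping groups and a log2 fold change of −0.13 (SE 0.08). Hmgcs1, the HMG-CoA synthase that follows it, was at 61.9, 50.4 and 65.3 CPM in PTHrP and 78.9, 76.5 and 67.5 CPM in DsRed. Every PTHrP library lay below every DsRed library, although PTHrP replicate 3 and DsRed replicate 3 were close. Its log2 fold change was −0.33 (SE 0.10, edgeR adjusted p = 0.37), and −0.22 (SE 0.07, edgeR adjusted p = 0.156) without PTHrP replicate 2. Hmgcs1 lies at chr13:119690379-119708260 and has the match to the sterol regulatory element printed above.

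Mvk, mevalonate kinase, differed in the other direction. It was at 32.8, 24.9 and 33.9 CPM in PTHrP and at 23.9, 25.1 and 23.3 CPM in DsRed. PTHrP replicates 1 and 3 were well above the narrow DsRed range and replicate 2 lay within it. The log2 fold change was 0.34 (SE 0.11, edgeR adjusted p = 0.387). Without replicate 2 it rose by 0.47 (SE 0.08, edgeR adjusted p = 0.00546), a fitted fold change of 1.39, the largest rise among the members in that fit. Mvk is at chr5:114444269-114460591. Pmvk, the next kinase, was higher in PTHrP replicates 1 and 3 too, without passing (log2 fold change 0.16, SE 0.07, edgeR adjusted p = 0.369 without replicate 2). Mvd, the decarboxylase that follows, had overlapping groups and a log2 fold change of −0.07 (SE 0.14).

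Idi1, the isomerase that makes the second isoprenoid unit, was at 17.6, 14.7 and 16.7 CPM in PTHrP and 24.8, 22.5 and 17.2 CPM in DsRed. PTHrP replicate 1 was just above DsRed replicate 3, and all other PTHrP libraries were below every DsRed library. Idi1 had the most negative fitted log2 fold change of the members, −0.40 (SE 0.13, edgeR adjusted p = 0.396), and −0.33 (SE 0.12, edgeR adjusted p = 0.253) without PTHrP replicate 2. Without DsRed replicate 3 it was −0.54, and still did not pass. Fdps and Fdft1, the farnesyl diphosphate and squalene synthases, had overlapping groups and log2 fold changes of 0.09 (SE 0.18) and −0.07 (SE 0.07). Exons of Fdft1 overlap 774 bases of Ctsb on the opposite strand, a gene with 47188 to 55497 counts per library, so its count is uncertain as well.

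Of the 9 enzymes that turn squalene into sterols, 8 had negative and 1 a positive log2 fold change with 6 libraries (median −0.15). Without PTHrP replicate 2 there were 7 and 2 (median −0.06), and none passed in either fit. Over all genes, 10844 of 21141 were negative with 6 libraries and 11748 of 22316 without that replicate. Sqle, the squalene epoxidase and a control point of the pathway, was at 220.2, 229 and 233 CPM in PTHrP and 241, 258 and 236 CPM in DsRed. The groups did not overlap, by a narrow margin, and the log2 fold change was −0.11 (SE 0.06, edgeR adjusted p = 0.614), with −0.11 again without PTHrP replicate 2. Cyp51, the lanosterol demethylase, was at 189, 169.8 and 186 CPM in PTHrP and 204, 209 and 191 CPM in DsRed. Its groups did not overlap either, with a log2 fold change of −0.15 (SE 0.06, edgeR adjusted p = 0.507).

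Msmo1, the methylsterol oxidase, was at 90.6, 80.6 and 96.2 CPM in PTHrP and 103, 104 and 97.8 CPM in DsRed. The highest PTHrP library was just under the lowest DsRed library, and the log2 fold change was −0.19 (SE 0.07, edgeR adjusted p = 0.472). Hsd17b7, the keto reductase of the same demethylation steps, was at 20.8, 17.2 and 18.6 CPM in PTHrP and 21.8, 22.6 and 21.6 CPM in DsRed. All PTHrP libraries lay below the tight DsRed group, with a log2 fold change of −0.22 (SE 0.09, edgeR adjusted p = 0.511). Sc5d, the lathosterol oxidase, was at 72.9, 71.4 and 74.1 CPM in PTHrP and 77.9, 76.2 and 76.1 CPM in DsRed. Its groups were separate as well, at a log2 fold change of −0.08 (SE 0.06). The margins between groups were thus small for each of these enzymes. Without PTHrP replicate 2 the log2 fold changes of Cyp51, Msmo1, Hsd17b7 and Sc5d were −0.10, −0.12, −0.16 and −0.06. Groups that are separate with 6 libraries stay separate when a library is left out, so their separation there adds nothing.

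Nsdhl, the sterol dehydrogenase, was at 22, 16.7 and 24 CPM in PTHrP and 23, 24.8 and 21.9 CPM in DsRed. Only PTHrP replicate 2 was outside the DsRed range, and the log2 fold change was −0.15 (SE 0.12), or −0.01 without that library. Lss, the cyclase that closes the sterol rings, had 55.9 CPM in PTHrP replicate 2 and 84.8 to 93.8 CPM in the other 5 libraries. Its log2 fold change turned from −0.15 (SE 0.18) to 0.05 (SE 0.06). Ebp and Dhcr7, late enzymes, had overlapping groups and log2 fold changes of 0.04 (SE 0.07) and −0.02 (SE 0.10). Both changed sign without PTHrP replicate 2. Lss shares 381 exonic bases, and Cyp51 166, with opposite-strand neighbours.

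Stard4, a soluble carrier that moves sterol between membranes, showed the widest spread. It was at 28.5, 13.6 and 28.8 CPM in PTHrP and 34.3, 32.4 and 25.6 CPM in DsRed. PTHrP replicate 2 was 1.07 lower than the other PTHrP libraries on the log2 scale, and the other 2 lay inside the DsRed range. The log2 fold change of −0.38 (SE 0.31) became −0.10 (SE 0.10) without it. Of the 18 sterol genes, Stard4 included, 4 were positive and 14 negative with a median log2 fold change of −0.12. Without PTHrP replicate 2, which was the lowest of the 6 libraries for 11 of the 18, there were 6 positive and 12 negative, with a median of −0.06. Over all genes, 48.7% were positive with 6 libraries and 47.4% without that replicate.

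**Figure D2:**
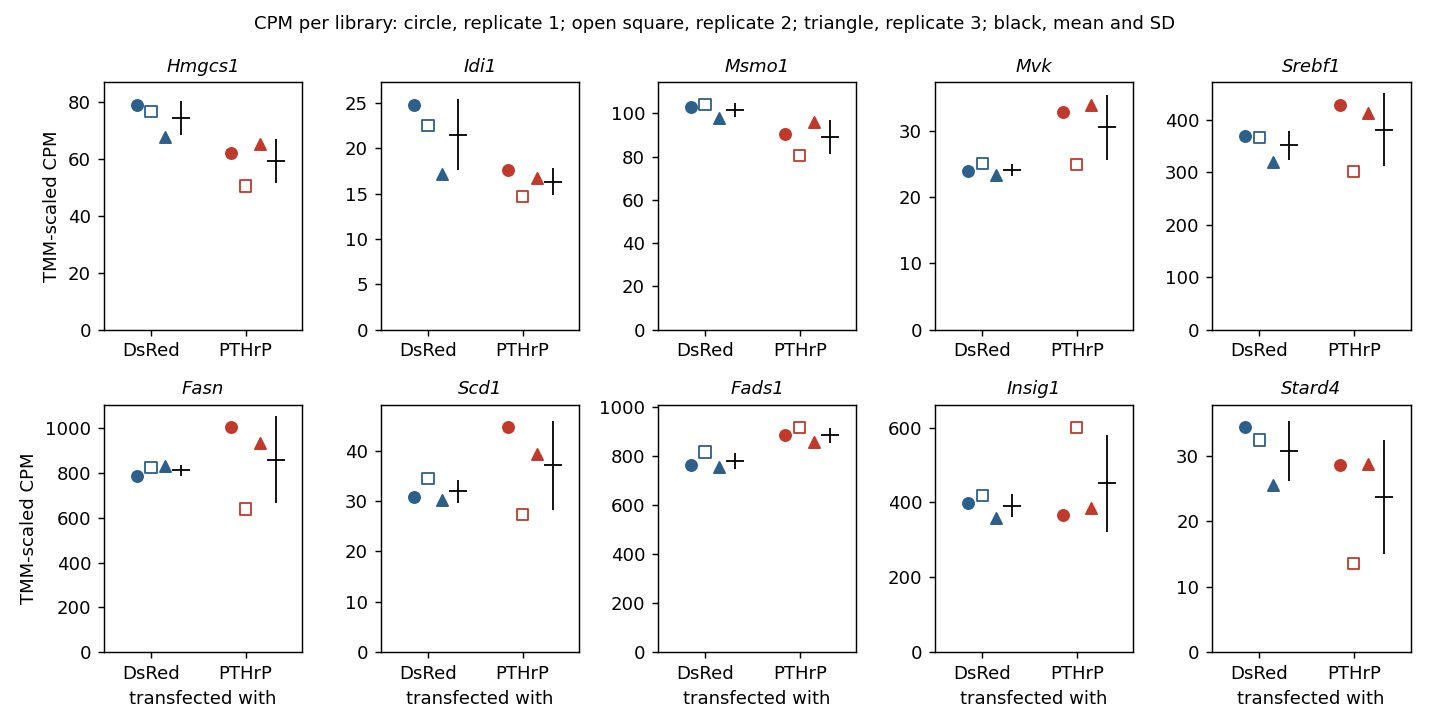
TMM-scaled CPM (y axis, from 0) of 10 genes in each library, DsRed in blue and PTHrP in red, with the group's mean and SD (n = 3) in black beside the points. Hmgcs1 and Msmo1 were lower in all PTHrP libraries, Fads1 was higher in all, and Mvk, Srebf1, Fasn and Scd1 were higher in PTHrP replicates 1 and 3 alone.

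Fatty acid synthesis begins with cytosolic acetyl-CoA. Acly was at 8093, 7045 and 7687 CPM in PTHrP and 7999.6, 8502 and 7913 CPM in DsRed. The groups overlapped, and the log2 fold change was −0.10 (SE 0.06). Acss2, which makes acetyl-CoA from acetate, had a log2 fold change of −0.09 (SE 0.08), and its exons overlap those of 3 opposite-strand genes. Acaca, the carboxylase of the committed step, was at 78.9, 44.5 and 73.8 CPM in PTHrP and 68.3, 72.8 and 73.9 CPM in DsRed. Only PTHrP replicate 2 was low, and the log2 fold change turned from −0.13 (SE 0.21) to 0.09 (SE 0.06) without it.

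Fasn, the synthase that builds palmitate, was at 1002, 639 and 934 CPM in PTHrP and 784, 824 and 829 CPM in DsRed. Replicates 1 and 3 of PTHrP exceeded every DsRed library, while replicate 2 was the lowest of all. With 6 libraries the log2 fold change was 0.08 (SE 0.16, edgeR adjusted p = 0.924). Without replicate 2 Fasn rose by 0.26 (SE 0.05, edgeR adjusted p = 0.0151), a fitted fold change of 1.19. Fasn is at chr11:120805846-120824547.

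The desaturases put double bonds into fatty acids. Scd1 was at 44.6, 27.3 and 39.4 CPM in PTHrP and 30.9, 34.5 and 30.3 CPM in DsRed. Like Fasn it was highest in PTHrP replicates 1 and 3 and lowest in replicate 2. Its log2 fold change was 0.22 (SE 0.16, edgeR adjusted p = 0.744). Without replicate 2 it rose by 0.40 (SE 0.08, edgeR adjusted p = 0.0242), a fitted fold change of 1.32. Scd1 lies at chr19:44394455-44407879, next to Scd2 at chr19:44293674-44306864, and reads from stretches the paralogs share cannot be assigned with certainty.

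Scd2 itself was at 1320.3, 1049 and 1240.4 CPM in PTHrP and 1051, 1179 and 1082 CPM in DsRed. PTHrP replicate 2 was just below the lowest DsRed library and the other PTHrP libraries were above all DsRed libraries. The log2 fold change was 0.12 (SE 0.08), and 0.22 (SE 0.05, edgeR adjusted p = 0.0605) without replicate 2, just short of the threshold.

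Fads1, the delta-5 desaturase of polyunsaturated fatty acids, was the member with the smallest unadjusted p. It was at 885, 918 and 856 CPM in PTHrP and 763, 817 and 757 CPM in DsRed. Every PTHrP library was above every DsRed library, and replicate 2 was the highest. The log2 fold change was 0.19 (SE 0.05, edgeR adjusted p = 0.367), and 0.16 (SE 0.05, edgeR adjusted p = 0.13) without replicate 2, so it passed in neither. Fads2, the delta-6 desaturase encoded nearby on the same chromosome, was at 526, 501 and 495 CPM in PTHrP and 503, 507 and 466 CPM in DsRed. Its groups overlapped, with a log2 fold change of 0.05 (SE 0.05).

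The elongases Elovl5 and Elovl6 had log2 fold changes of −0.02 (SE 0.05) and 0.08 (SE 0.13), with overlapping groups. Of the 10 fatty acid genes, 6 were positive and 4 negative, with a median log2 fold change of 0.06. Without PTHrP replicate 2 there were 7 positive and 3 negative, with a median of 0.12. In that fit, with 2 PTHrP libraries, 2 of the 10 rose (Fasn and Scd1), against 0.636% of all genes. The 5 regulators had medians of 0.12 and 0.03.

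**Figure D3:**
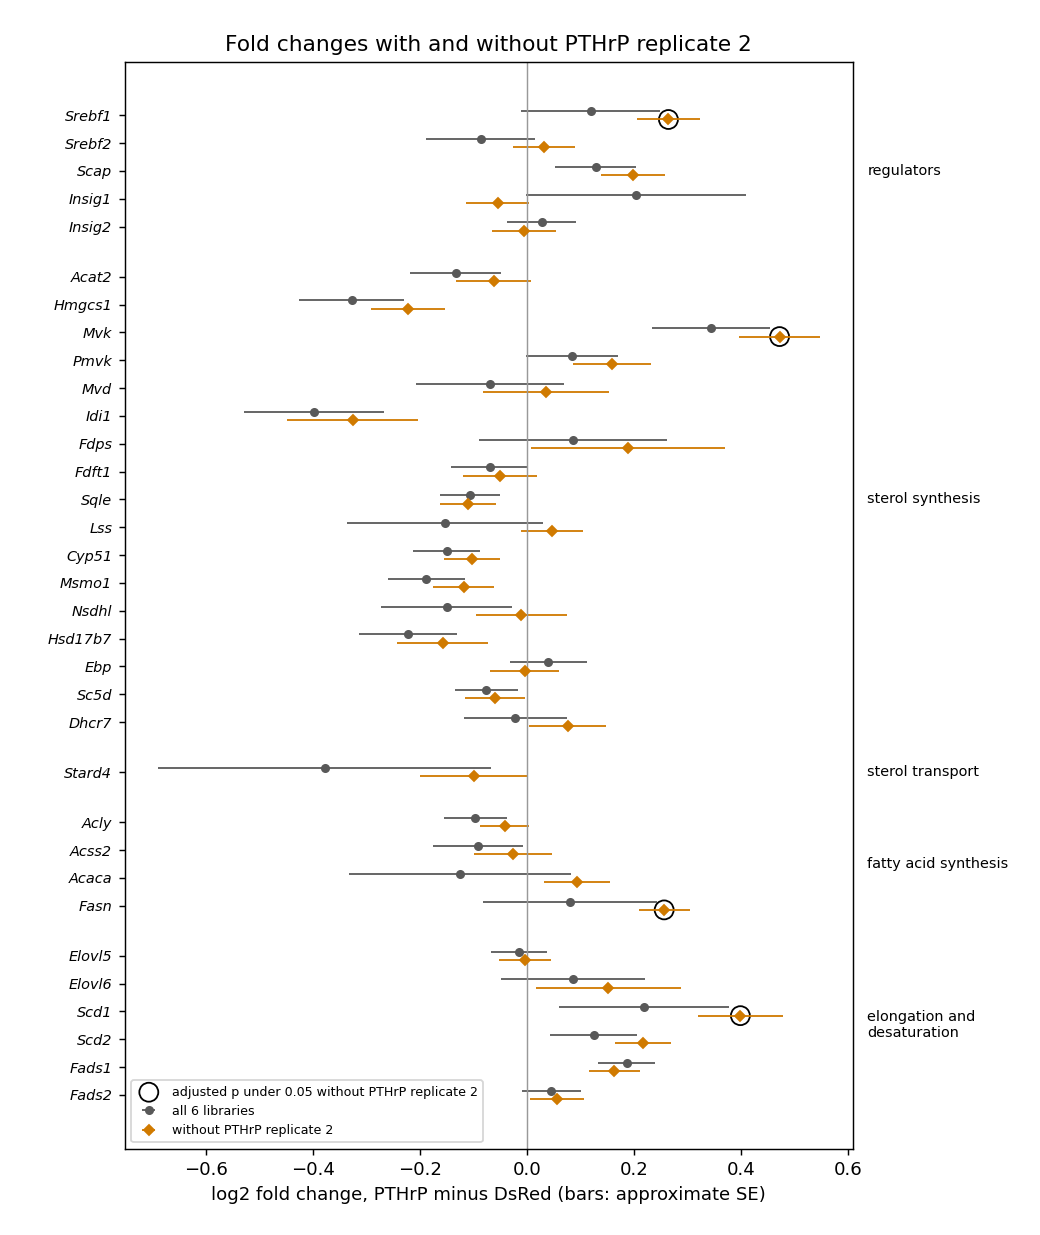
Log2 fold change, PTHrP minus DsRed (x axis), of each of the 33 genes, with its approximate SE as a bar. Grey circles are the fit of all 6 libraries and orange diamonds the fit without PTHrP replicate 2, where Srebf1, Mvk, Fasn and Scd1 (black rings) passed an adjusted p of 0.05. Most sterol genes lie to the left of 0 in both fits.

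PTHrP replicate 2 was the lowest of the 6 libraries for 19 members (57.6%, against 23% of all genes tested) and the highest for 4, Insig1, Insig2, Ebp and Fads1 (12.1%, against 23.4%). The 19 comprised 11 sterol genes, 6 fatty acid genes and 2 regulators. On the log2 scale its differences from the mean of the other PTHrP libraries were −1.07 for Stard4, −0.78 for Acaca, −0.70 for Lss, −0.62 for Scd1, −0.60 for Fasn and −0.48 for Srebf1. Averaged over all 33 members, the deviation from the DsRed mean was 0.05, −0.21 and 0.03 in PTHrP replicates 1, 2 and 3 and 0.03, 0.06 and −0.09 in DsRed replicates 1, 2 and 3. DsRed replicate 3, the library with the highest beta cell marker sum, was below the DsRed mean for 30 of 33 members, a count not taken over all genes. It was the lowest of the 6 libraries for 8 members and the highest for 0. Over the 21141 genes tested it was the lowest for 3340 and the highest for 3710. The part of either library's makeup in these results was not tested.

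Sterol and fatty acid genes were both at their lowest mean level in PTHrP replicate 2, but the distance between them differed by group. The 10 fatty acid genes deviated on average by 0.17, −0.16 and 0.08 in the PTHrP libraries and by −0.0001, 0.05 and −0.05 in the DsRed libraries. Over the 18 sterol genes the mean deviation came to −0.03, −0.30 and −0.01 with PTHrP and to 0.03, 0.07 and −0.10 with DsRed. The fatty acid mean minus the sterol mean was therefore 0.21, 0.14 and 0.08 in PTHrP and −0.03, −0.02 and 0.05 in DsRed, or 0.14 ± 0.06 and 0.00 ± 0.05 (SD, n = 3 each). The DsRed average is 0 by construction, because each gene was measured from its own DsRed mean. All 3 PTHrP libraries, replicate 2 included, lay above all 3 DsRed libraries, narrowly for replicate 3 of each group (0.08 against 0.05). With medians in place of means the values were 0.24, 0.12 and 0.08 against −0.05, −0.01 and 0.04. Since it is a difference within a library, scaling between libraries does not enter it. This difference was chosen after the values had been seen and is given as a description, without a test. How often other groups of genes separate the libraries in this way was not examined.

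**Figure D4:**
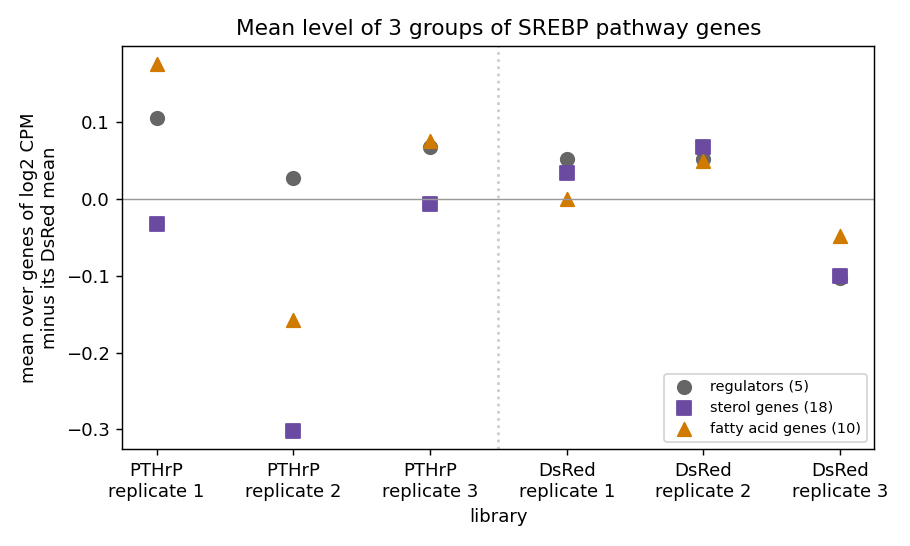
For each library (x axis), the mean over the genes of log2 CPM minus the gene's DsRed mean (y axis), for the regulators (grey circles), sterol genes (purple squares) and fatty acid genes (orange triangles). The triangle lies above the square by 0.08 to 0.21 in the PTHrP libraries and by −0.03 to 0.05 in the DsRed libraries.

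Other genes of the pathway were read from 5 lists of 67 genes, of which 66 were tested. With 6 libraries 0 of 66 passed edgeR's test. At an unadjusted p under 0.05, 8 were higher (12.1%, against 4.92% of all genes) and 6 lower (9.09%, against 3.98%). The fold changes were positive for 36 and negative for 30. Without PTHrP replicate 2, 2 of the 66 rose (3.03%, against 0.636% of all genes) and 0 fell (against 0.318%). Vldlr, the very low density lipoprotein receptor, was at 143, 111 and 135 CPM in PTHrP and 106, 107 and 117 CPM in DsRed, and rose by 0.34 (SE 0.06, edgeR adjusted p = 0.00919). Abcg1, a sterol exporter induced by the sterol-sensing LXR factors, was at 182, 216 and 177 CPM in PTHrP and 154, 157 and 153 CPM in DsRed. It was higher in every PTHrP library and rose by 0.22 (SE 0.05, edgeR adjusted p = 0.0389).

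Among the 7 LXR genes, 5 were positive and 2 negative, with a median of 0.07. Nr1h3, which encodes LXR alpha, was at 0.823 to 1.51 CPM in PTHrP and 0.536 to 0.753 CPM in DsRed (log2 fold change 0.93, SE 0.31, edgeR adjusted p = 0.403), a low level. Apoe, the lipoprotein carrier, was lower in every PTHrP library, at 4.69 to 6.37 CPM against 7.48 to 10.3 CPM (log2 fold change −0.65, SE 0.16, edgeR adjusted p = 0.282). Of the 10 genes of SREBP processing and INSIG turnover, 5 were positive and 5 negative. The ubiquitin ligase gene Syvn1 was at 206, 166 and 191 CPM in PTHrP and 244, 231 and 213 CPM in DsRed (log2 fold change −0.29, SE 0.08, edgeR adjusted p = 0.348). Ubxn2a was at −0.18 (SE 0.07), and the SREBP protease gene Mbtps1 at 0.10 (SE 0.05), higher in every PTHrP library.

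Of 9 sterol uptake and transport genes, 5 were positive and 4 negative. Stard3, a sterol carrier of late endosomes, was higher in every PTHrP library (log2 fold change 0.23, SE 0.07, edgeR adjusted p = 0.37). Lipa, the lysosomal acid lipase, was lower in every PTHrP library (−0.24, SE 0.10, edgeR adjusted p = 0.535). Of 11 other sterol and isoprenoid genes tested, 4 were positive and 7 negative, with Fdx1, Tm7sf2 and Ggps1 at log2 fold changes of 0.29, 0.19 and −0.12. Of 29 other fatty acid and triglyceride genes, 17 were positive and 12 negative. Mcat and Oxsm, enzymes of the separate mitochondrial fatty acid synthesis route, had log2 fold changes of 0.38 (SE 0.10) and 0.73 (SE 0.22) and were higher in every PTHrP library. Fads3 was lower in every PTHrP library at −0.81 (SE 0.27), at 2.98 CPM or less. None of these passed with 6 libraries.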

How the data were processed

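RNA-seq was measured in 6 libraries, and the authors deposited raw counts per gene for each. Per the submitters' processing notes, the tools were bcl2fastq, STAR and featureCounts 2.0.3 (Subread), with GRCm38 as the build. Which annotation and strand setting were used, and how reads with several matches were treated, was not given in the sources used here. Groups and replicate numbers come from the library titles. Of 55774 entries, 287 repeats of an Ensembl identifier with identical counts were removed. Chi-square per gene between libraries was 9.08 to 68.6, so no pair was a duplicate.

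Counts were tested with edgeR 4.0.16 (R 4.3.3): filterByExpr, TMM scaling, robust quasi-likelihood F-test with a group term, two-sided, Benjamini-Hochberg adjustment over 21141 genes (22316 without PTHrP replicate 2), threshold 0.05. The biological coefficient of variation was 17.7%. The SE is the fold change divided by the square root of F, an approximation. Per-library values are TMM-scaled CPM, and levels averaged over genes are log2 CPM with a prior count of 2. The lowest count of a member in any library was 277. The scripts were tested on simulated data. Alternatives were RLE scaling, library sizes alone, other filters, DESeq2 1.42.0, limma-voom 3.58.1, a replicate block and leaving out each library. Values in every library are given for the 16 members with the smallest p and 13 members chosen by name, 23 genes in all since the sets overlap. From the other pathway lists, genes past the threshold and up to 3 with the smallest p are named. Members, lists and the decision to leave out PTHrP replicate 2 were chosen with earlier results of these data known. DESeq2 and limma-voom without that replicate were added after seeing the data.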

Additional observations from a re-analysis of the deposited data

How the results depend on the processing

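The number of members past the threshold, 0 with all 6 libraries, was 3 without a filter on low counts (Mvk higher, 0.275% of all genes; Hmgcs1 and Idi1 lower, 0.221% of all genes), 0 to 4 when single libraries were left out, and, without PTHrP replicate 2, 5 with DESeq2 and 6 with limma-voom. Members with an unadjusted p under 0.05, 7 with 6 libraries, ranged from 3 to 10 when single libraries were left out (all genes at that p ranged from 5.16% to 13%), and were 11 (33.3%, against 12.6% of all genes) with limma-voom without PTHrP replicate 2. All genes past the threshold, 9 with 6 libraries, were 14 with library sizes alone, 220 without a filter, 136 with DESeq2, 2 to 213 when single libraries were left out, and 566 (DESeq2) and 288 (limma-voom) without PTHrP replicate 2. The cause was not tested.

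Log2 fold changes of 11 members changed sign when a single library was left out, with ranges of −0.17 to 0.03 for Srebf2, −0.05 to 0.33 for Insig1, −0.0064 to 0.05 for Insig2, −0.21 to 0.04 for Mvd, −0.07 to 0.19 for Fdps, −0.29 to 0.05 for Lss, −0.0051 to 0.07 for Ebp, −0.11 to 0.08 for Dhcr7, −0.28 to 0.09 for Acaca, −0.05 to 0.26 for Fasn and −0.04 to 0.0073 for Elovl5. Leaving out PTHrP replicate 2 turned 8 of them, and among the libraries left out singly it alone brought members past the threshold. RLE scaling, library sizes alone, a minimum of 1 CPM in 3 libraries, DESeq2, limma-voom and the replicate block changed no member's direction or side of the threshold. Deviations of same-numbered libraries from their group means correlated at −0.106 to 0.025, and those of different-numbered libraries at −0.155 to 0.131. With 3 libraries per group, such correlations cannot tell whether equal numbers mark a shared culture or day. With the replicate block 0 members and 7 genes passed, 6 members had an unadjusted p under 0.05 (18.2%, against 7.85% of all genes), and the members' median log2 fold change was −0.06. The members had at least 277 counts in every library. Averaged over all genes with enough counts, the spread exceeded counting error between every pair of libraries (chi-square per gene 9.08 to 68.6). That comparison was not made for the members apart.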
